A study of Mus musculus with 8 samples.

Results

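The genes described here encode the subunits of the mitochondrial respiratory chain and of ATP synthase. They were measured in lymph nodes that drain B16 melanomas in mice. Members were chosen by name alone: every gene whose symbol starts with Ndufa, Ndufb, Ndufc, Ndufs, Ndufv, Sdh, Uqcr, Cox4, Cox5, Cox6, Cox7, Cox8 or Atp5, except Cox6a2 and the Ndufaf genes. A member needed a probe with a detection p-value under 0.05 on at least 4 of the 8 arrays, and its brightest such probe was used. This gave 76 genes of the 10543 named genes with a kept probe, and no member named on the array table was lost to the filter. Of these, 69 were detected on all 8 arrays. The name rule also brought in the assembly factors Sdhaf1 to Sdhaf4, the supercomplex factor Cox7a2l and the pseudogene Ndufs5-ps, a copy of Ndufs5 whose signal is uncertain for that reason, which are counted with the complex they are named after, while Ndufa4 is counted with complex IV. Several subunits, among them Sdha, Ndufs1 and Uqcrfs1, were not analysed here.

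All mice carried a B16 tumor grown under the skin to an area of 30 to 40 mm2, and the tumor was injected once. In 4 mice the injection held 3M-052, an agonist of the Toll-like receptors TLR-7/8, and in 4 mice it held vehicle, and the draining nodes were taken on day 4. The methods describe the mice of the study as female C57BL/6 mice of 6 to 8 weeks. Each node of 1 mouse was put on 1 Illumina bead array, which reads how abundant a transcript is as the brightness of its beads in a single color. B16 is a mouse melanoma cell line, so that tumor RNA in a node cannot be told apart from host RNA by its gene names. A node is a mixture of cells, and in such bulk RNA fewer cells of a type and less RNA per cell cannot be told apart. The extraction text in the labels speaks of tumors, whereas the other labels and the methods name draining lymph nodes. The B and T cell transcripts of a node were bright on every array (mean log2 intensity of the measured markers 9.89 to 10.3 and 10.5 to 11.8), while the melanocyte markers Dct, Pmel and Slc45a2 averaged 4.95 to 5.96 after 3M-052 and 5.33 to 10.02 after vehicle. The value of 10.02 came from vehicle replicate 3, and the other 3 vehicle arrays lay at 6.23 or below. Without that array the median log2 fold change of the members was 0.14, against 0.12 with it.

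The respiratory chain sits in the inner mitochondrial membrane. Complex I takes electrons from NADH and complex II from succinate, complex III passes them to cytochrome c, and complex IV hands them to oxygen. Complexes I, III and IV pump protons, and ATP synthase, complex V, uses their return flow to make ATP. A few subunits have isoforms that are confined to certain tissues, such as Cox8b in fat and striated muscle. Resting lymphocytes live largely on oxidative phosphorylation, and activated ones enlarge their mitochondria while glycolysis rises. Many nuclear genes of the chain share binding sites for the factors NRF1, the ETS protein GABPA and YY1 close to their transcription start.

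The promoters of a few members that carry or lack such sites are shown first. Those of Atp5k, Ndufb7 and Cox8b belong to genes that the results below turn on. Sequences are from RefSeq (GRCm38.p6), each covering the 120 bases before the annotated start, written 5′ to 3′ along the gene. Capitals mark the NRF1 core CGCATGCG or the ETS core CCGGAAG, both searched on either strand. The Cox8b window holds neither. The Atp5g2 and Ndufa11 promoters are shown as further carriers of the NRF1 core. Atp5k, Ndufa11 and Atp5g2 had the highest log2 fold changes of its carriers (1.01, 0.27 and 0.22). The carriers Atp5l (-0.10) and Uqcr11 (-0.003) were negative and are not shown. A link between these motifs and the direction of change was not tested.
Atp5k, chr5:108434400-108434519, minus strand: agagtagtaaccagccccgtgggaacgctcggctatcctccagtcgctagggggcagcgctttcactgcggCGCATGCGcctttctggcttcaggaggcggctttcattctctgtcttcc
Atp5g2, chr15:102671048-102671167, minus strand: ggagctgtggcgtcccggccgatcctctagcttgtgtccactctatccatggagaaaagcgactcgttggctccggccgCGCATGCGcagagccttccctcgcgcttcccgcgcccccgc
Ndufa11, chr17:56717642-56717761, plus strand: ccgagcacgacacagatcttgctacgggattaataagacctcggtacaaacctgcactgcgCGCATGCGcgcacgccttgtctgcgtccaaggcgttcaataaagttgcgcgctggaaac
Ndufb7, chr8:83566638-83566757, plus strand: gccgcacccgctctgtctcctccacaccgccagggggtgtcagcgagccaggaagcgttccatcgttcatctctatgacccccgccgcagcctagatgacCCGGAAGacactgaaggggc
Cox8b, chr7:140900447-140900566, minus strand: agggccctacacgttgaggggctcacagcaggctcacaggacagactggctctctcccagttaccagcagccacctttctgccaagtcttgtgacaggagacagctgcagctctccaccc

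A promoter window of 250 bases before to 50 bases after the start was matched for 65 of the 76 members. The NRF1 core, which reads the same on both strands, stood in 9 of these (13.8%) and in 2.07% of all 27025 windows of the table. The ETS core stood in 19 (29.2%) against 9.93% of all windows, and the YY1 motif AAGATGGCG in 7 (10.8%) against 1.64%. The ETS core ends and the YY1 motif begins with the same letters, AAG, so that these can overlap. These are letter matches and not measured sites. The 9 members with the NRF1 core had log2 fold changes from -0.10 to 1.01 with a median of 0.12, and Atp5k, with its match at -49 to -42, was the highest of them. The 19 members with the ETS core had a median of 0.24 and the 7 with the YY1 motif one of 0.12. Over all 76 members the median was 0.12. The transcripts of Nrf1 and Gabpa were measured as well, while that of Yy1 is not reported here. The log2 fold change of Nrf1 was -0.08 ± 0.14 (SE, limma adjusted p = 0.80) and that of Gabpa was 0.57 ± 0.19 (SE, limma adjusted p = 0.11).

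The question for these genes was whether their transcript levels in the node differed between the treatments. Nearly all of them did not pass the test. One member, Atp5k, was higher after 3M-052 and 0 members were lower (limma with Benjamini-Hochberg adjustment over all 19462 kept probes, adjusted p under 0.05). At an unadjusted p under 0.05 there were 4 members, all higher: Atp5k, Ndufb7, Ndufa12 and Ndufb11, the last pair being named after their values were seen. Over all named genes 20.4% had such a p. The unpaired test that the methods name, run per probe, called 0 members after adjustment, in a fit that called 0.606% of kept probes higher and 0.504% lower. Among all kept probes 2.81% were called higher (546) and 2.29% lower (446). Counted by gene, with the brightest probe of each, 2.44% of named genes were called higher, and 1 of 76 is too few to set apart from that share. Median centering of the arrays, used instead of quantile normalization, called 570 probes higher and 298 lower. No member had all its 3M-052 arrays above or all below its vehicle arrays, whereas 5.57% of kept probes lay wholly above and 7.1% wholly below.

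The members' fold changes leaned upward and were small. Of 76 members 63 had a positive log2 fold change, and the median was 0.12. Over all named genes 46.2% were positive and the median was -0.03. The median standard error of a member was 0.20, larger than that median. The 95% interval lay within a 2-fold change in either direction for 66 members and within 1.5-fold for 34. Under quantile normalization this bounds how large an undetected change in those could be, but the intervals leave out the choice of normalization. With median centering the log2 fold change of Atp5b was 0.411, above the upper limit of 0.396 given by its interval. The 56 members with a mean log2 level of 9 or more had a median of 0.09, and the 20 dimmer members one of 0.23. With median centering these medians were 0.38 and 0.25, so that their order depended on the normalization.

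**Figure D1:**
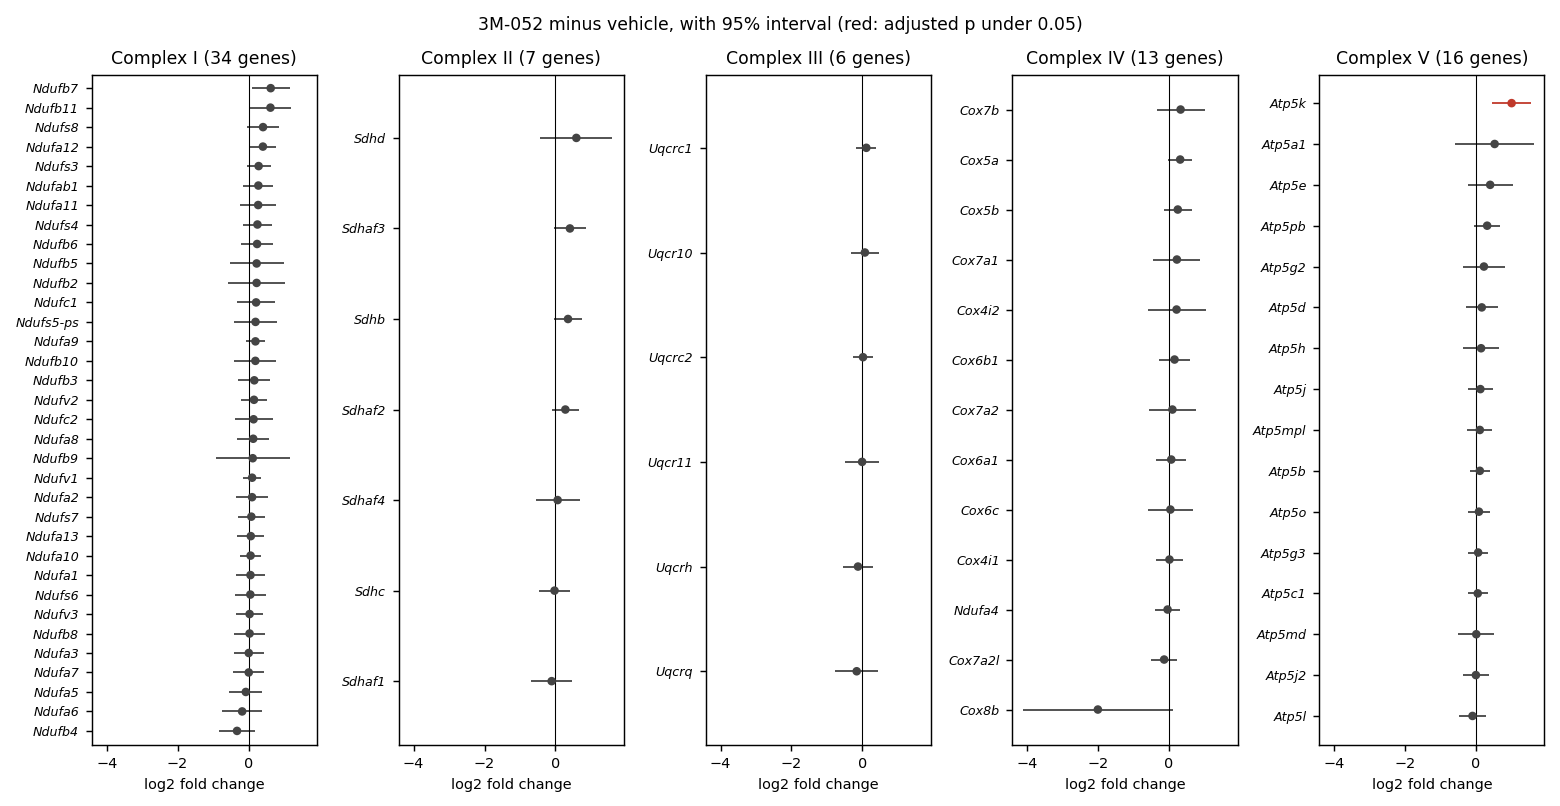
Log2 fold change of each of the 76 genes (3M-052 minus vehicle, x axis), with its 95% interval from limma as a line, 1 panel per complex, 4 arrays per group. Most intervals cross 0, Atp5k in complex V is the 1 gene past the threshold, and Cox8b in complex IV has the lowest value and the widest interval.

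Complex V, the ATP synthase, held the called gene. Atp5k encodes the small e subunit in the membrane part of the enzyme. Its log2 intensity was 6.04, 6.16, 5.21 and 6.0 in the 3M-052 replicates 1 to 4, and vehicle replicates 1 to 4 gave 5.28, 4.81, 4.81 and 4.48. The groups overlap, because 3M-052 replicate 3 lay just under vehicle replicate 1. This made a log2 fold change of 1.01 ± 0.25 (SE, 95% interval 0.45 to 1.56), which passed in limma at an adjusted p of 0.045. The two-sided exact permutation test of the group means gave p = 0.057, where 0.029 is the smallest p that 4 against 4 allow. The probe is dim: it was detected on 4 of 4 3M-052 arrays and on 1 of 4 vehicle arrays. It thus met the detection filter through the 3M-052 arrays, and the size of the change is uncertain, since most vehicle values were not above background (without background correction the log2 fold change was 0.46). The call rests on few arrays, since the adjusted limma p lay between 0.059 and 0.14 when any array other than 3M-052 replicate 3 was left out, and at 0.013 without that array. It was also lost with median centering (0.074), without the filter on dim probes (0.10) and with the fat cell gene mean of each array in the fit (0.055), while the log2 fold change stayed positive.

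The other members of complex V did not pass the test. Atp5a1, the alpha subunit of the catalytic head, gave log2 intensities of 8.78, 8.84, 8.81 and 6.84 after 3M-052 and 8.05, 7.99, 8.63 and 6.49 after vehicle. In both groups the array numbered 4 stood far below the rest, and within each pair of equal number the 3M-052 array was the higher one. The log2 fold change was 0.53 ± 0.51 (SE, limma adjusted p = 0.62), and a second, dimmer Atp5a1 probe gave -0.47. With the replicate number as a block in limma the adjusted p of the brighter probe was 0.058. That fit called 6.33% of all kept probes higher and 7.7% lower. Atp5b, the catalytic beta subunit, read 14.48, 14.22, 14.74 and 14.34 after 3M-052 and 14.19, 14.26, 14.48 and 14.41 after vehicle, a log2 fold change of 0.11 ± 0.13 (SE). The groups are interleaved, and the highest value of this gene came from 3M-052 replicate 3. Atp5l, the g subunit, had the lowest log2 fold change of the complex at -0.10 ± 0.18 (SE), and Atp5mpl, a small accessory subunit, had 0.11 ± 0.16 (SE) on its brightest probe and -0.11 on another. Over the 16 genes 14 were positive and the median was 0.12.

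Complex I, the largest of the chain, had 34 members. None was called, 31 were positive, and the median log2 fold change was 0.15. The highest was Ndufb7, an accessory subunit. It read 8.91, 8.59, 8.06 and 8.89 after 3M-052 and 8.21, 7.47, 7.95 and 8.31 after vehicle. The 3M-052 replicates 1, 2 and 4 lay above every vehicle array, and replicate 3 lay below vehicle replicates 1 and 4. The log2 fold change was 0.63 ± 0.24 (SE, limma adjusted p = 0.17, exact permutation p = 0.086). When the replicate number entered the fit as a block, Ndufb7 passed the threshold (adjusted p = 0.043), in a fit that called 6.33% of all kept probes higher and 7.7% lower.

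Ndufv1, the subunit that binds NADH and flavin, read 12.17, 11.96, 12.09 and 11.96 after 3M-052 and 11.92, 11.90, 12.002 and 11.95 after vehicle. Its log2 fold change of 0.10 ± 0.11 (SE) had a 95% interval of -0.14 to 0.35. Ndufa13, known also as GRIM-19, had a value of 0.06 ± 0.18 (SE), and its 3M-052 replicate 3, at 12.53, stood below the other 7 arrays, which lay between 12.94 and 13.32. The lowest member was Ndufb4, a membrane arm subunit, at -0.32 ± 0.23 (SE, limma adjusted p = 0.47), detected on 2 of 4 3M-052 arrays and 4 of 4 vehicle arrays. Ndufa5 and Ndufb8, accessory subunits, had -0.08 and 0.03 on their brightest probes and 0.52 and -0.05 on a dimmer one.

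Complex II, succinate dehydrogenase, feeds electrons from the Krebs cycle into the chain. Its 3 measured subunits had log2 fold changes from -0.02 for Sdhc, a membrane anchor, to 0.59 for Sdhd, the other anchor. Sdhd read 7.62, 6.82, 6.60 and 6.03 after 3M-052 and 6.72, 6.67, 6.63 and 4.69 after vehicle. Vehicle replicate 4, where the probe was not detected, stood far below the remaining vehicle arrays, which lay among the 3M-052 values. The standard error was 0.46 and the limma adjusted p 0.53. The 4 assembly factors had a median of 0.17, and Sdhaf1, which helps load the iron-sulfur subunit, was the lowest at -0.10 ± 0.26 (SE).

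Complex III had 6 members, of which 3 were positive, with a median of 0.009. Uqcrc1, a core subunit, read 11.63, 11.52, 11.77 and 11.48 after 3M-052 and 11.42, 11.36, 11.70 and 11.46 after vehicle. The arrays of equal number lay close together, and the log2 fold change was 0.12 ± 0.13 (SE, limma adjusted p = 0.68). Uqcrh, the hinge protein beside cytochrome c1, read 13.22, 13.31, 12.44 and 13.38 after 3M-052 and 13.38, 13.05, 13.11 and 13.28 after vehicle. Replicate 3 of 3M-052 lay below the vehicle range and its companions within or at the edge of it, and the log2 fold change was -0.12 ± 0.19 (SE). Uqcrq, a small subunit, was the lowest of the complex at -0.16 ± 0.28 (SE).

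**Figure D2:**
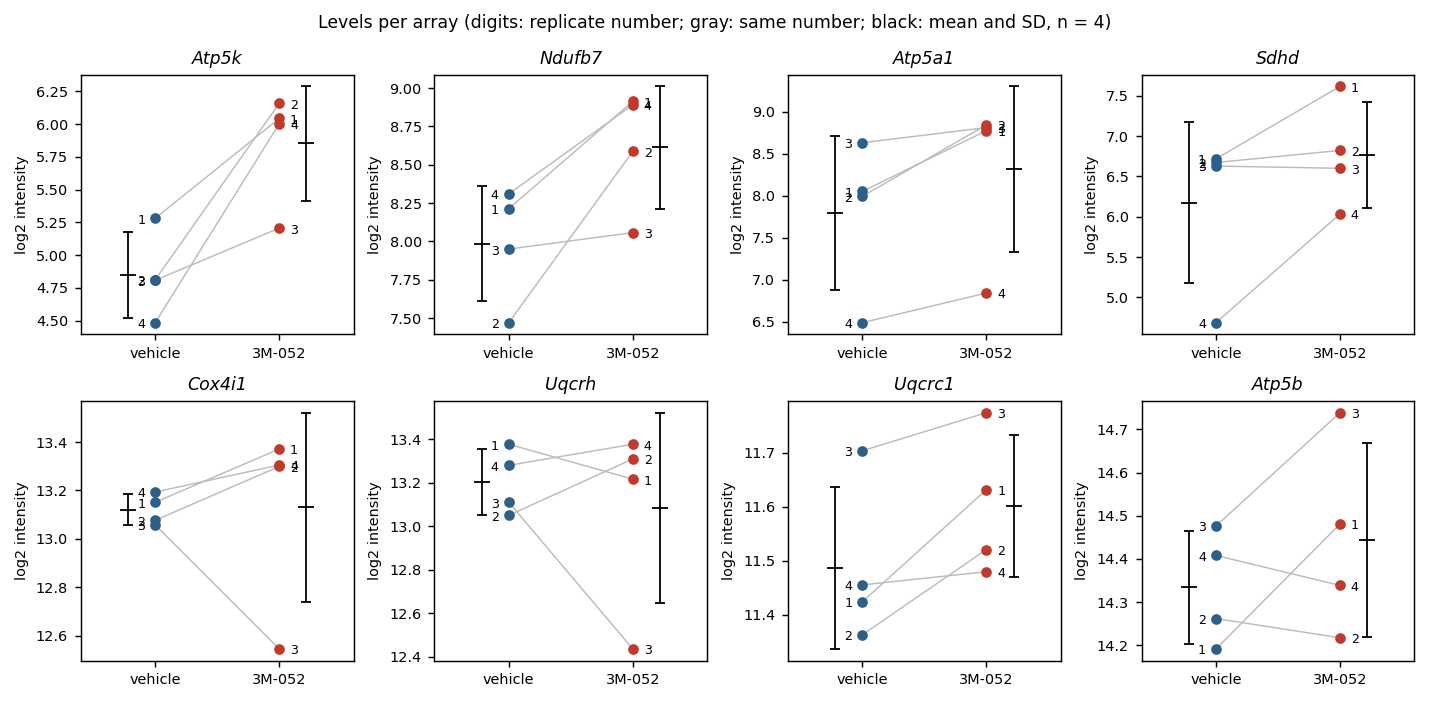
Log2 intensity of 8 genes on each array (points, digits give the replicate number, gray lines join arrays of equal number, black bars give the mean and SD of 4 arrays). Atp5k and Ndufb7 are higher after 3M-052 in every numbered pair, Sdhd and Atp5a1 hold low values on arrays numbered 4, and Cox4i1 and Uqcrh hold 1 low value on 3M-052 replicate 3.

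Complex IV, cytochrome c oxidase, is where the tissue-restricted isoforms lie. Of 13 members 10 were positive, the median was 0.09, and none was called. Cox4i1, the widespread isoform of a regulatory subunit, read 13.37, 13.30, 12.54 and 13.31 after 3M-052 and 13.15, 13.08, 13.06 and 13.19 after vehicle. The 3M-052 replicates 1, 2 and 4 lay above all vehicle arrays and replicate 3 far below them, which left a log2 fold change of 0.01 ± 0.17 (SE). Cox5a, a subunit that binds the Cox4 protein, had 0.31 ± 0.15 (SE, limma adjusted p = 0.28). Cox6b1 had 0.15 and Ndufa4, once counted with complex I, -0.04. Cox7b was the highest at 0.32 ± 0.31 (SE), on a dim probe detected on 2 and 3 of 4 arrays.

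Cox8b had the lowest log2 fold change of all members, at -2.01, and it did not pass the test (standard error 0.97, 95% interval -4.13 to 0.11, adjusted p = 0.27 from limma, exact permutation p = 0.20). It encodes the isoform of the smallest subunit found in fat and striated muscle, and in the mouse it is a common transcript of brown fat. Its log2 intensity was 4.99, 6.29, 4.50 and 7.34 after 3M-052 and 8.37, 9.04, 9.36 and 4.39 after vehicle. Vehicle replicates 1 to 3 stood above every 3M-052 array, whereas vehicle replicate 4 was the lowest of the 8. The probe was detected on 2 of 4 arrays after 3M-052 and 3 of 4 after vehicle. Without vehicle replicate 4 the log2 fold change was -3.14 (adjusted p = 0.0073), and 3.51% of kept probes were called lower in that fit. Its usual partner Cox8a was not analysed here.

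Transcripts of fat cells moved with Cox8b. Of 11 listed fat cell genes 6 were measured (Adipoq, Car3, Cidec, Lep, Lpl and Plin1). Their mean log2 level was 7.27, 8.27, 5.53 and 8.13 after 3M-052 and 9.51, 10.45, 10.51 and 6.73 after vehicle. The same 3 arrays were lowest and the same 3 highest for this mean and for Cox8b. The summed intensity of the list ran from 1133 to 4275 after 3M-052 and from 1860 to 18903 after vehicle. Of 8 brown fat genes Cidea and Cpt1b were measured and Ucp1 was not. Cidea, which sits on lipid droplets, read 4.89, 4.52, 4.64 and 5.59 after 3M-052 and 5.21, 5.78, 6.46 and 4.55 after vehicle, detected on 1 and 3 of 4 arrays. Like Cox8b it was low on vehicle replicate 4, and its log2 fold change was -0.59 ± 0.38 (SE, limma adjusted p = 0.42). Cpt1b, an enzyme of fatty acid uptake into mitochondria, had 0.25 ± 0.21 (SE, limma adjusted p = 0.56). With the fat mean of each array as a covariate the log2 fold change of Cox8b was 0.28 (limma adjusted p = 0.90). That fit called 151 of 19462 kept probes higher and 26 lower, against 546 and 446 in the main fit. The 6 fat cell genes themselves had log2 fold changes from -3.16 to -0.83, so that fat level and treatment cannot be fully told apart. The part of fat cells in the Cox8b values was not tested. Of 12 skeletal muscle genes 4 were measured, and their mean level ran from 6.31 to 7.48 and from 6.65 to 7.40. One of them is Cox6a2, the muscle isoform of a complex IV subunit that the name rule leaves out, which was lower after 3M-052 with a log2 fold change of -0.98 ± 0.25 (SE, limma adjusted p = 0.048). The other muscle genes measured did not pass the test and had positive values, 0.42 for Mylpf, 0.34 for Pvalb and 0.05 for Tnni2. Cox6a2 read 6.90, 6.45, 7.04 and 7.55 after 3M-052 and 8.01, 8.05, 7.54 and 8.26 after vehicle, so that its groups overlap at 1 array, and it did not share the low vehicle replicate 4 of Cox8b.

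**Figure D3:**
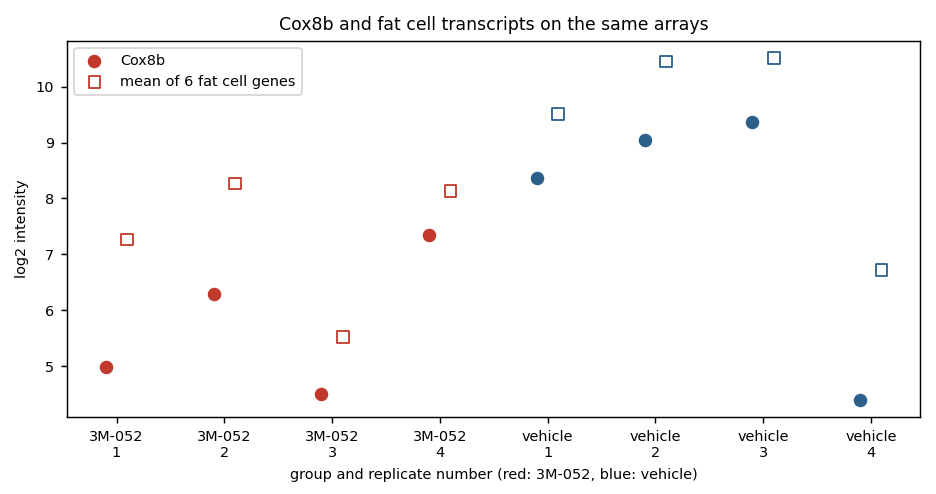
Log2 intensity of Cox8b (filled circles) and the mean of 6 fat cell genes (open squares) on each of the 8 arrays (x axis, red 3M-052, blue vehicle). Vehicle replicates 1 to 3 are highest for both, and vehicle replicate 4 and 3M-052 replicate 3 are the lowest pair for both.

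The other tissue-restricted isoforms were compared with their widespread partner on the same array, 2 pairs in all. The level of Cox7a1, the heart and muscle isoform, minus that of Cox7a2 was -0.45 ± 0.29 (SD, n = 4) in the 3M-052 group and -0.58 ± 0.27 (SD, n = 4) in the vehicle group, a change of 0.13 (two-sided exact permutation p = 0.63, adjusted over both pairs 0.66). For Cox4i2, the lung isoform, minus Cox4i1 the change was 0.20 (exact permutation p = 0.66, adjusted 0.66), with Cox4i2 detected on 2 of 4 arrays in each group. Both changes were smaller than the spread between arrays.

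The members varied together from array to array. Relative to each gene's own mean, their median log2 level stood at 0.35, 0.06, -0.44 and 0.24 for replicates 1 to 4 of 3M-052 and at -0.003, -0.23, -0.05 and 0.08 for those of vehicle. The 3M-052 arrays thus held both the highest and the lowest of the 8 medians. On 3M-052 replicate 3 41 of 76 members had their lowest level, against 21.2% of all named genes, and on 3M-052 replicate 1 40 members had their highest, against 14.4%. On 3M-052 replicate 3 the medians were -0.48, -0.17, -0.46, -0.52 and -0.28 for complexes I to V. Within complex II the 3 subunits had a median of -0.04 there and the 4 assembly factors one of -0.42. The 3 members Uqcrc1, Uqcrc2 and Atp5b had their highest level there instead. The first pair are core subunits of complex III, and all were picked out after their values were seen. The median over all named genes on that array was -0.02, that of 50 cytosolic ribosome genes was -0.12 and that of 72 mitochondrial ribosome genes was -0.20. Other lists stood above their own mean there, with medians of 0.11 for the assembly factors, 0.18 for the Krebs cycle and pyruvate dehydrogenase, 0.14 for the biogenesis regulators and 1.04 for the dividing cell genes. Fat cell genes (-2.57) and T cell genes (-0.68) stood low, and 5 of 6 and 6 of 6 of them had their lowest level on this array. This list of cytosolic ribosome genes was added after the data were seen.

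The same array stood apart when arrays of equal replicate number were compared pair by pair. The median over the members of the 3M-052 minus the vehicle level was 0.31, 0.36, -0.37 and 0.19 for numbers 1 to 4. The 3M-052 array was the higher one for 66, 64, 16 and 66 members. In all 4 pairs 12 of the 76 were higher, among them Atp5k, Ndufb7, Ndufv1, Uqcrc1 and Atp5a1. Leaving out 3M-052 replicate 3 raised the median of the members to 0.25 with 72 positive, whereas leaving out 3M-052 replicate 1 lowered it to 0.02 with 44 positive. Without 3M-052 replicate 4 it was 0.05 with 49 positive, and without vehicle replicate 2 it was 0.06 with 52 positive. The size of the upward lean depended on single arrays of both groups. Centering arrays on their median raised the median of the members to 0.38 with 72 positive, and that of the cytosolic ribosome genes went from 0.002 to 0.30, while the median of all kept probes went from -0.01 to 0.04.

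**Figure D4:**
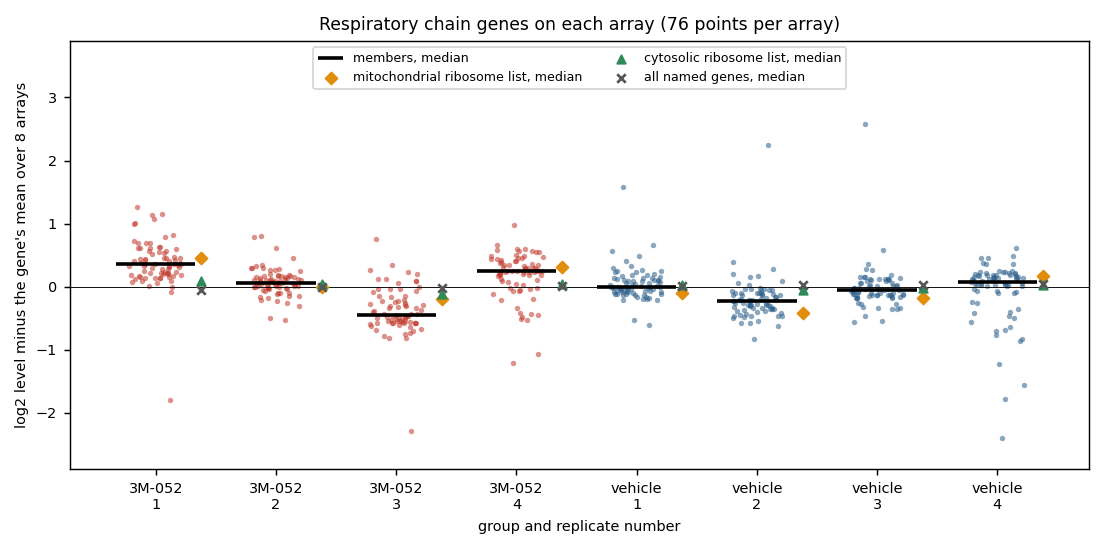
Log2 level of the 76 genes on each array minus each gene's mean over the 8 arrays (points), with the median of the members (black line) and of 3 comparison sets (symbols). The members' median is 0.35 on 3M-052 replicate 1 and -0.44 on 3M-052 replicate 3, the highest and the lowest of the 8, while the median of all named genes stays near 0.

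Other mitochondrial genes were set beside the members. The mitochondrial ribosome, which translates the subunits encoded in mitochondrial DNA, had a median log2 fold change of 0.29 over 72 genes, of which 66 were positive, 1 was called higher and 0 lower. The called gene was Mrpl16, a protein of its large subunit, with 9.21, 8.70, 8.71 and 9.07 after 3M-052 and 8.27, 7.71, 8.29 and 8.24 after vehicle (log2 fold change 0.79, standard error 0.20, adjusted p = 0.041). The groups did not overlap for this gene, which held for 5.57% of all kept probes in this direction. Of all named genes 2.44% were called higher, and 1 of 72 is too few to set apart from that share. Assembly factors of the complexes had a median of 0.23 (36 of 44 listed genes measured, 28 positive, 0 called) and the import channels one of 0.16 (19 genes, 17 positive, 0 called). In contrast, the enzymes of the Krebs cycle and pyruvate dehydrogenase had a median of -0.02 (16 of 19 measured, 7 positive) and the regulators of mitochondrial biogenesis -0.05 (17 of 18 measured, 8 positive), with 0 called in both. Respiratory genes outside the name rule had -0.009 (10 of 13 measured, 4 positive, 0 called), and the cytosolic ribosome 0.002 (50 genes, 26 positive, 0 called). With median centering the medians were 0.45 for the mitochondrial ribosome, 0.29 for assembly factors and 0.30 for import. They were 0.10 for the Krebs cycle list, 0.10 for the biogenesis regulators, 0.24 for respiratory genes outside the name rule and 0.30 for the cytosolic ribosome. Part of the contrast between the lists thus depended on the normalization.

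Markers of several cell types differed between the groups. Of 8 measured genes of dividing cells 6 were called higher after 3M-052 and 0 lower, with a mean log2 level of 9.68 to 10.35 against 8.33 to 9.32. Of 9 measured plasma cell genes 7 were called higher (9.31 to 10.003 against 8.32 to 8.72), and of 6 T cell genes 3 were called lower (10.52 to 11.09 against 11.33 to 11.78). Of 3 red cell genes 2 were called lower (6.80 to 7.25 against 8.06 to 8.33). The summed intensity was 8524 to 15900 and 4036 to 7187 for dividing cells, 25295 to 31990 and 11038 to 14631 for plasma cells, 12891 to 19543 and 25529 to 34027 for T cells and 1171 to 3210 and 6502 to 7612 for red cells. The part of these cell types in the levels of the respiratory genes was not tested.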

How the data were processed

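Per the labels and the methods, node RNA was amplified in a pair of rounds, labeled with biotin and hybridized to Illumina mouse arrays. The authors deposited the intensity of 45281 probes on 8 arrays as exported from GenomeStudio (version: not given in the sources), with the detection p-value that this software gives each probe. They also deposited a table of 21765 normalized intensity values, whose method and centering are not stated, with a lowest value of 29.6. Each of its columns correlated with its own array at 0.984 to 0.997 and was used on the log2 scale as an alternative. Detected probes numbered 17817 to 20315 per array and the mean intensity was 306 to 461. The arrays numbered 4 had the highest floor, with lowest intensities of 45.5 and 44.9 against 36.6 to 39.5. Precision is limited by there being 4 arrays per group.

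The neqc function of limma 3.58.1, run in R 4.3.3 with an offset of 16, corrected the background from the detection p-values, applied quantile normalization and returned log2 values. Kept were 19462 probes with a detection p under 0.05 on 4 or more arrays. Groups were compared by lmFit and eBayes with a variance trend, Benjamini-Hochberg adjustment over all kept probes and a threshold of 0.05. Named members were also tested by exact permutation. Gene names came from the platform annotation, updated by identifier to GRCm38.p6 RefSeq: 18216 probes of the normalized table had 1 gene, 8 had several and 3541 none, and 3048 kept probes are unnamed here. Of the members 24 had several kept probes, and in 4 the probes differed in direction. The fit was checked on simulated data.

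The members, lists and tests were chosen with earlier results of these data known. Named members are those past the threshold, tissue isoforms and their partners, catalytic subunits, the highest, lowest and brightest gene of each complex and genes whose probes differ in direction. From the other mitochondrial lists up to 3 called genes in each direction are named, while called cell type markers are given as counts. Mice are taken as separate replicates, 1 per array, from the study's description. Both groups use the same replicate numbers, whose meaning the labels leave unsaid. Deviations from the group means of arrays of equal number correlated at 0.19, 0.43, 0.25 and 0.57, and every array correlated best with its own number. As every pair exceeded 0.1, the numbers were taken to pair the arrays, which rests on the data alone. Over the members alone these correlations were 0.26, 0.26, 0.11 and 0.30. The main limma fit and the permutation tests are unpaired and do not use this pairing. With the number as a block, limma called 1232 probes higher and 1499 lower, against 546 and 446 in the main fit. The adjusted p of Atp5k was 0.015 in that limma fit. Alternatives were other background corrections, normalizations, filters and variance models, array weights, the block, the normalized table, a fat transcript covariate, the methods' unpaired Student's test, gene means and leaving out each array.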

Additional observations from a re-analysis of the deposited data

Results flagged for a closer look

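In 7 of 52 groups of 4 arrays (26 named members in 2 treatments), 1 array stood apart from the others by a gap that took more than 0.829 of the group's range. The medians of all members and of each complex, 12 further groups, gave no such gap. Chance alone flags about 1 group in 20. Of the 7, 5 came from 3M-052 replicate 3, which was low for Ndufa13 (gap share 0.947), Cox4i1 (0.913), Atp5k (0.836), Atp5l (0.832) and Uqcrh (0.829). On this array the median member stood at -0.44 relative to its own mean and the median over all named genes at -0.02. Without it the median log2 fold change of the members was 0.25, and Atp5k kept its call (adjusted p = 0.013 from limma).

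The other flags came from arrays numbered 4, which shared the highest floor of intensity. Atp5a1 was low on 3M-052 replicate 4 (gap share 0.966) and also on vehicle replicate 4, and Sdhd was low on vehicle replicate 4 (0.956), where its probe was not detected. The part of the floor in these values was not tested.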

How the results depend on the processing

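The count of members called higher, 1 as reported, was 0 with median centering, with normexp without detection p-values, without the filter on dim probes, with probes detected on all 8 arrays (where Atp5k is not among the 69 members tested), with the fat covariate, with the methods' unpaired Student's test and without both arrays numbered 4, an alternative added after seeing the data. In that order, these fits called 570, 531, 415 (of 45281), 496 (of 15296), 151, 118 and 498 probes higher. The probes tested numbered 19462 where no total is given. A count of 0 or 1 of 76 members is too few to set apart from such shares. With the replicate block it was 2 (Atp5k and Ndufb7), and the block changed no other call. The count called lower, 0 as reported, was 1 without both arrays numbered 4, from Cox8b, in a fit that called 440 of 19462 probes lower. With each array left out in turn the counts ranged from 0 to 1 higher and from 0 to 1 lower, the latter from Cox8b without vehicle replicate 4. Over all 19462 probes those fits called 283 to 670 higher and 118 to 683 lower. The adjusted p of Atp5k ran from 0.013 to 0.14 over its alternatives, and its log2 fold change from 0.46 without background correction to 1.36 with the fat covariate. The median of the members ran from 0.02 to 0.38 and stayed positive in every setting. Of 540 values of the 26 named members under alternatives, 477 kept direction and side of the threshold, 13 (all of Atp5k) lost the call, 3 (Ndufb7 with the block, Cox8b without vehicle replicate 4 and without both arrays numbered 4) gained one, 47 uncalled values changed sign and 0 called values reversed. Why calls were lost was not tested. Dim probes such as those of Atp5k and Cox7b lie near the floor of the arrays, which limits their fold changes. The Cox8b probe lay near the floor on some arrays only, and it read 8.37, 9.04 and 9.36 on vehicle replicates 1 to 3.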
